A study of Homo sapiens with 4 samples.

Results

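The genes described here are 10 interferon-stimulated genes, IFIT1, IFIT2, IFIT3, IFIT5, ISG15, MX1, OAS1, IFITM1, IFITM2 and IFITM3, out of 17217 named genes measured on the same arrays. All 10 were found on the array through the RefSeq accession in the probe names, with 1 target each and 3 targets for OAS1, which came to 36 probes. The list was chosen from values of these arrays, with the difference between replicates 1 and 3 and replicates 2 and 4 in view. That difference is therefore given as a description and was not tested.

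HEK293 cells, an established line that arose from embryonic kidney tissue after transfer of adenovirus DNA, were grown without any treatment in DMEM with serum, penicillin and streptomycin. The labels give 1 group of 4 biological replicates, each grown on its own plate and extracted on its own according to the methods. Each array reads the RNA of a whole plate, so fewer cells with a message and less message per cell cannot be told apart. Nothing in the labels sets replicates 1 and 3 apart from 2 and 4, and no stock, passage or date is given for them.

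Interferons are secreted when a cell senses foreign nucleic acid. They act through cell surface receptors, the kinases JAK1 and TYK2 and transcription factors such as STAT2 and IRF9, which together switch on a large set of genes. Many products of these genes act on viruses. IFIT proteins bind viral RNA, ISG15 is a ubiquitin-like protein that is joined to other proteins, and MX1 is a GTPase that traps viral components. OAS1 makes short oligoadenylates that set off the breakdown of RNA, and IFITM proteins hinder the fusion of virus and cell membranes.

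Of the 10 genes, 5 had both arrays of replicates 1 and 3 above both arrays of replicates 2 and 4, with means at least 1 log2 unit apart. These were IFIT2, IFIT3, OAS1, ISG15 and MX1. Among all 17217 genes 4.85% did the same. With the median of a target's probes in place of their linear mean, 2 genes did so, IFIT2 and IFIT3, and 4 of the 10 lay higher on both of replicates 1 and 3 at any size. With the linear mean and counted at any size, 8 of the 10 lay higher on both of replicates 1 and 3, against 22.2% of all genes. IFITM1 alone of the 10 lay higher on both of replicates 2 and 4, where 18.5% of all genes did, and none did so by 1 log2 unit, against 5.41% of all genes. The median difference of the 10 genes was 1.00 log2 units and that of all genes 0.03.

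**Figure D1:**
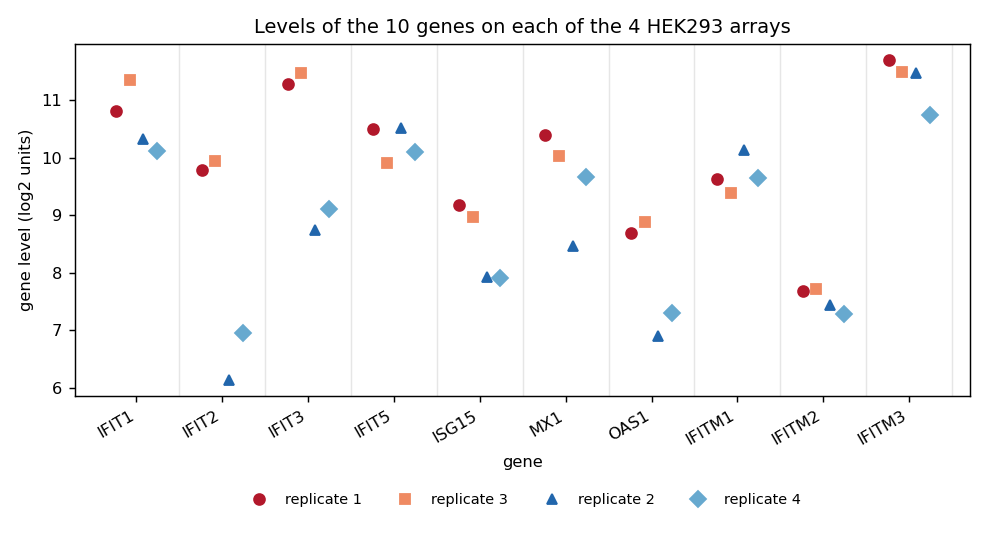
Level of each of the 10 genes (log2 units, vertical axis) on each HEK293 array, with 1 point per array, circles and squares for replicates 1 and 3 and triangles and diamonds for replicates 2 and 4. IFIT2, IFIT3, ISG15 and OAS1 form 2 separate pairs of points, while the points of IFIT5 and IFITM1 are mixed or lie close together.

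The IFIT family differed among its own members. IFIT2 stood at 9.78 log2 units on replicate 1 and 9.95 on replicate 3, and at 6.14 on replicate 2 and 6.95 on replicate 4. The means of the pairs differed by 3.32 log2 units. The nearest arrays of the 2 pairs were 2.83 log2 units apart, while replicates 1 and 3 differed by 0.17 and replicates 2 and 4 by 0.81. On replicates 2 and 4 the values of IFIT2 lay within the range of 6.05 to 7.72 spanned over the 4 arrays by 8 of the 10 seminal protein genes that the study took as not transcribed. The same held for OAS1, and replicates 2 and 4 lay below the study's detection baseline for IFIT3 and ISG15 too, so no fold change is given for these genes.

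IFIT3, which binds IFIT1 and stabilises it on RNA, stood at 11.29 and 11.47 log2 units on replicates 1 and 3 and at 8.75 and 9.11 on replicates 2 and 4. Its difference was 2.45 log2 units. IFIT1, which recognises RNA ends that lack the host's cap methylation, stood at 10.81 and 11.35 on replicates 1 and 3 and at 10.33 and 10.12 on replicates 2 and 4. The 2 pairs of IFIT1 did not overlap, but the difference of 0.86 was much smaller than for IFIT2 and IFIT3, and the nearest arrays were 0.48 apart.

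IFIT5, the member that also binds cellular tRNA, gave 10.50, 10.51, 9.91 and 10.09 log2 units on replicates 1 to 4. Its arrays were interleaved, and the difference was -0.10. IFIT2, IFIT3, IFIT1B, IFIT1 and IFIT5 follow each other in this order on chromosome 10. IFIT1B, which lies between IFIT3 and IFIT1, was 6.70, 6.63, 6.49 and 7.13 log2 units on replicates 1 to 4, with overlapping pairs. Outside the cluster, LIPA on the IFIT2 side was higher on replicates 2 and 4 (difference -0.49), CH25H beyond it was higher on replicates 1 and 3 (difference 0.92), and SLC16A12 beyond IFIT5 had overlapping pairs (difference 0.17). Differences over 1 log2 unit in this stretch were those of IFIT2 and IFIT3.

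ISG15 stood at 9.18 and 8.98 log2 units on replicates 1 and 3 and at 7.93 and 7.91 on replicates 2 and 4. The difference was 1.16 log2 units, and the arrays within a pair were 0.21 and 0.02 apart. MX1 stood at 10.39 and 10.03 on replicates 1 and 3 and at 8.46 and 9.67 on replicates 2 and 4. Its difference of 1.15 rested mostly on replicate 2, since replicate 1 lay 1.93 above replicate 2 but replicate 3 only 0.37 above replicate 4. Without replicate 2 the difference of MX1 was 0.55.

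OAS1 was 8.69 and 8.88 log2 units on replicates 1 and 3 and 6.89 and 7.30 on replicates 2 and 4. The difference was 1.69 log2 units, with 1.39 between the nearest arrays. Its 3 targets, which stand for transcript variants, gave differences of 2.08, 1.34 and 1.67. Each of these rested mainly on 1 probe at a position the targets share, and with the median of the probes the difference of OAS1 was 0.40.

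The IFITM genes showed small differences. IFITM3 was 11.70 and 11.49 log2 units on replicates 1 and 3 and 11.47 and 10.73 on replicates 2 and 4, a difference of 0.50 with only 0.03 between the nearest arrays. IFITM2 was 7.67 and 7.72 on replicates 1 and 3 and 7.43 and 7.28 on replicates 2 and 4, a difference of 0.34. IFITM1 went the other way, at 9.62 and 9.39 on replicates 1 and 3 and 10.13 and 9.65 on replicates 2 and 4, a difference of -0.39. The coding sequences of IFITM1, IFITM2 and IFITM3 are closely alike, and whether a probe of one also takes up message of another was not tested. PKP3, which lies near these genes on chromosome 11, was higher on replicates 1 and 3 by 3.17.

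The replicates fall into pairs in another way too. When the probe values of each array were sorted, replicates 1 and 2 matched to 0.01 log2 units at 99.97% of positions and replicates 3 and 4 at 99.99%, whereas the remaining pairs matched at 1.23% to 1.25%. Each of these pairs holds 1 array from either side of the comparison, so the difference can be read within each. Between replicates 1 and 2, IFIT2 differed by 3.65, IFIT3 by 2.54, OAS1 by 1.80 and ISG15 by 1.26 log2 units. Between replicates 3 and 4 the same genes differed by 3.00, 2.35, 1.59 and 1.07.

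Single probes were then compared. Of the 36 probes, 19 lay higher on both of replicates 1 and 3 and 1 lay higher on both of replicates 2 and 4, while among all 71998 probes 21.1% lay higher on both of replicates 1 and 3 and 16.8% on both of replicates 2 and 4. All 3 probes of IFIT2, of IFIT3 and of ISG15 lay higher on both of replicates 1 and 3. The differences were 1.73 to 4.03 for IFIT2, 2.23 to 2.83 for IFIT3 and 0.95 to 1.48 for ISG15. The ISG15 probes carry the position numbers 4, 5 and 7, so they overlap and are not separate readings along the transcript. In MX1 1 probe of 3 lay higher on both of replicates 1 and 3, and in IFIT1 2 of 3 did.

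OAS1 and IFITM3 were uneven along the transcript. In OAS1, 5 of 9 probes lay higher on both of replicates 1 and 3, and the 3 with the largest differences, from 2.11 to 2.80, carried the same position number, 867, in the 3 targets. The other 6 OAS1 probes ranged from -0.92 to 0.82. These 3 probes gave 9.66, 9.98 and 9.80 log2 units on replicate 1 and 7.25, 6.89 and 7.13 on replicate 2. In IFITM3, the probe at position 592 was 11.80 and 11.25 on replicates 1 and 3 and 8.44 and 9.28 on replicates 2 and 4, a difference of 2.67. The probes on either side of it gave -1.44 and 0.38. Summarised by the median of the probes in place of their linear mean, 2 genes, IFIT2 and IFIT3, stayed at least 1 log2 unit higher on replicates 1 and 3. ISG15 was then at 0.95, MX1 at 0.81 and OAS1 at 0.40.

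**Figure D2:**
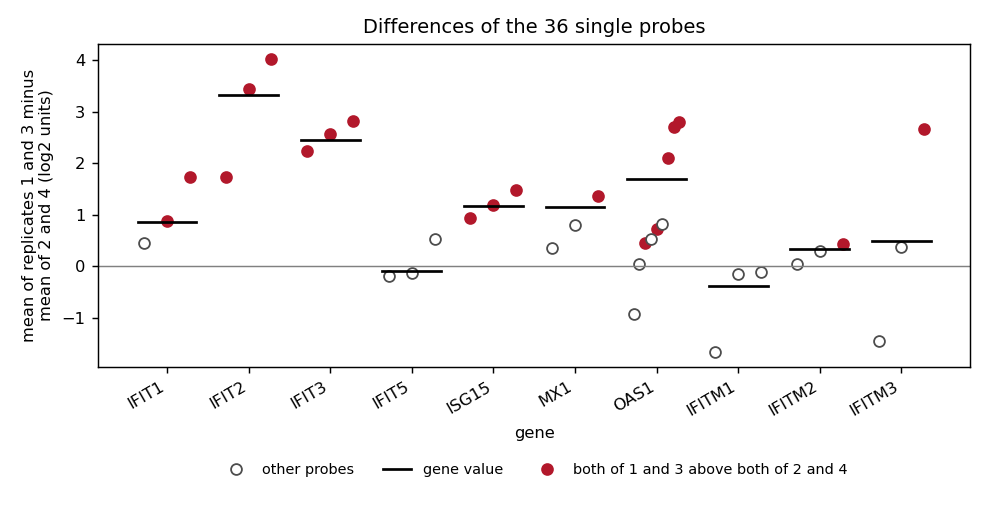
Difference of each of the 36 probes (mean of replicates 1 and 3 minus mean of replicates 2 and 4, log2 units), by gene. Filled points are probes that were higher on both of replicates 1 and 3, open points are the others, and bars are the gene values. The filled points include all 3 probes of IFIT2, IFIT3 and ISG15, but 1 of 3 for IFITM3. The 3 probes of ISG15 overlap along the transcript.

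Promoter sequence is shown for genes with large and with small differences, because interferon acts on these genes through a short element of 2 GAAA blocks near their start. The search was for GAAANNGAAA on either strand, which reads TTTCNNTTTC on the other, in RefSeq windows of 300 bases that run from 250 before a start site to 50 after it (GRCh38.p14). Windows were listed for 8 of the 10 genes, all but IFIT2 and IFITM2, and those of 7 genes held at least 1 match. Of all 27305 genes with a window 4.38% did, and of all 35116 windows 3.57%. The capitals below mark the matches. The windows are ISG15 at chr1:1013247-1013546, IFIT3 at chr10:89327747-89328046 and at chr10:89332279-89332578 (its 2 listed starts), IFIT1 at chr10:89392373-89392672 and IFIT5 at chr10:89414318-89414617, all on the plus strand.
ISG15: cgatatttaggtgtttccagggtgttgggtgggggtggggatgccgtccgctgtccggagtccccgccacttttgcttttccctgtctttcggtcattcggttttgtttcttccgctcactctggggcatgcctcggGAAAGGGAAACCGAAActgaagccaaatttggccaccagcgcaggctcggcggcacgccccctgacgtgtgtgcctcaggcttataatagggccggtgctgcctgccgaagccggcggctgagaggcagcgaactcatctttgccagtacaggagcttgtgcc
IFIT3, first start: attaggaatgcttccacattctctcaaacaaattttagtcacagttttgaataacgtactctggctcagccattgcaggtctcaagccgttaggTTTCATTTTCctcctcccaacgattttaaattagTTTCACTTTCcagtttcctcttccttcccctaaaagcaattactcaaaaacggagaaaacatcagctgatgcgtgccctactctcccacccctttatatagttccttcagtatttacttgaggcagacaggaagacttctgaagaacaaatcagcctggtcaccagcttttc
IFIT3, second start: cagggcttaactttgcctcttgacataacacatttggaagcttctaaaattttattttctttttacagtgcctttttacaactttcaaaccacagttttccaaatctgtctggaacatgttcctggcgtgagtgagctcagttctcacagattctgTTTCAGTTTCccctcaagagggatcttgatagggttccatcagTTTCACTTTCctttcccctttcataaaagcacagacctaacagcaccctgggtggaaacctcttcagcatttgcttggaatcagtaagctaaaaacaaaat
IFIT1: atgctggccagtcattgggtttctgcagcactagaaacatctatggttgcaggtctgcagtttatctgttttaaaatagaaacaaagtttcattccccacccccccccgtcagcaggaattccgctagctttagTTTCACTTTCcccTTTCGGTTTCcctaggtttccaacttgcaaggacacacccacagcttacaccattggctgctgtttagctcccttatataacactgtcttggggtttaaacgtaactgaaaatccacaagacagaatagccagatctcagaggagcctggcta
IFIT5: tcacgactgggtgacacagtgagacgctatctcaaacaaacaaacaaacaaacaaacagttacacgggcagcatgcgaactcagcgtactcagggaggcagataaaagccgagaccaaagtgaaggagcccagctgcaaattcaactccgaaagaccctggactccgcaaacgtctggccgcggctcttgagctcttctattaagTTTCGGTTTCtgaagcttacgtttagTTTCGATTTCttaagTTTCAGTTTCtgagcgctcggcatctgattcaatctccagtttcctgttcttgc

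ISG15 held 2 overlapping matches that begin 113 and 107 bases before the start, and IFIT1 held 2 that begin 116 and 103 bases before it. The first IFIT3 window held matches 156 and 122 bases before the start and the second 94 and 51 bases before it. IFIT5, whose level hardly differed between the replicate pairs, held 3 matches, 45, 19 and 4 bases before its start. IFITM1 and IFITM3 held 2 each, and MX1 held 1 in 2 of its 3 windows. The window of OAS1, which differed by 1.69 log2 units, held none, which says only that these letters are not in this window. Both genes with large and genes with small differences thus held the element.

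The study's own question for any gene was whether its message was present at all. Its rule takes the mean plus 2 SD of seminal protein genes on an array as a baseline and calls a gene detected where the mean distance to it is above 0. The baseline ran from 9.47 log2 units on replicate 1 to 10.69 on replicate 3. By this rule 4 of the 10 genes were detected, IFIT1, IFIT3, IFIT5 and IFITM3, against 52.7% of all genes. The baseline was raised by 2 of the 10 control genes, SPATA5 and SPATA13, and without them 9 of the 10 genes described here were detected. Every probe has its own affinity, so these distances do not rank the genes by abundance.

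IFITM3 stood 1.24 ± 0.80 log2 units above the baseline (SD, n = 4) and was the one gene of the 10 above it on all 4 arrays. It was also the one gene called by a one-sided limma test of the distance (adjusted p = 0.000499 over all genes), a test that called 45.9% of all genes. Its adjusted p ranged from 0.000277 to 0.0112 when each replicate was left out in turn, and was 0.00488 with the pairs of like sorted values as a random block. IFIT1, above the baseline on 3 of 4 arrays, had a mean distance of 0.55 ± 0.64 (SD, n = 4) and an adjusted p of 0.127 in limma. IFIT5 stood at 0.15 ± 0.81 and IFIT3 at 0.05 ± 1.5 (SD, n = 4 for each), both above it on 2 of 4 arrays and within the spread between arrays. For IFIT5 the 2 arrays were replicates 1 and 2, which share their sorted values.

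For IFIT3 the 2 arrays were replicates 1 and 3, at 1.82 and 0.78, while replicates 2 and 4 lay at -1.19 and -1.21. A mean over all 4 arrays thus describes neither pair of this gene. IFIT2 was above the baseline on replicate 1, by 0.31, and at -0.74, -3.80 and -3.37 on replicates 3, 2 and 4. ISG15, OAS1 and IFITM2 lay below it on all 4 arrays, which holds for the baseline with all control genes. Replicate 1, which had the lowest baseline, decided part of the count, since without it 2 of the 10 genes were detected, IFIT1 and IFITM3.

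**Figure D3:**
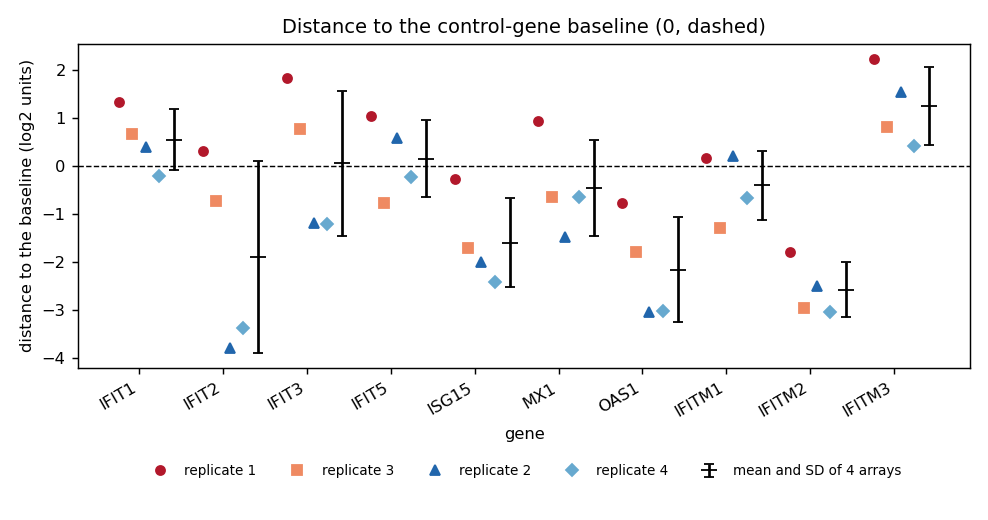
Distance of each of the 10 genes to the control-gene baseline of the same array (log2 units, baseline at 0), with 1 point per array and the mean and SD of the 4 arrays as a black bar. IFITM3 is above 0 on all 4 arrays, and ISG15, OAS1 and IFITM2 are below 0 on all 4.

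Other genes of the interferon pathway were examined next, in lists drawn up from general knowledge but with earlier results of these data known. All 21 interferon genes measured, of types I, II and III, lay below the baseline on all 4 arrays, where 6855 of all 17217 genes did. IFNB1 was at -3.56 ± 0.51 log2 units (SD, n = 4). This holds for the baseline with all control genes, and these genes were not set against the baseline without SPATA5 and SPATA13. The receptors and signalling proteins were largely present, with 11 of 12 detected and 10 called by limma. Among all genes 52.7% were detected and 45.9% were called. JAK1 stood at 4.36 ± 0.52, TYK2 at 3.22 ± 0.52 and STAT2 at 2.99 ± 0.80 above the baseline (SD, n = 4 for each).

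In this list 5 of 12 genes lay higher on both of replicates 1 and 3, 2 of them by at least 1 log2 unit. Among all genes 22.2% did so, and 4.85% by that size. None of the 12 lay higher on both of replicates 2 and 4, where 18.5% of all genes did. IRF9, the DNA-binding subunit of the interferon-activated complex, was 12.08 and 11.62 log2 units on replicates 1 and 3 and 10.25 and 10.04 on replicates 2 and 4, a difference of 1.70. JAK2, a kinase of the type II receptor, was 9.69 and 9.62 on replicates 1 and 3 and 8.38 and 8.30 on replicates 2 and 4. Its difference was 1.32. JAK2 was the gene of the 12 that was not detected, with a mean distance of -1.11 log2 units. It lay above the baseline on replicate 1 alone. STAT2, which binds IRF9, had a difference of -0.37 with overlapping pairs. IFNAR2, the signalling chain of the type I receptor, differed by 0.47, and IFNAR1 by -0.06 with overlapping pairs.

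Of 7 close relatives of the 10 genes, 5 lay below the baseline on all 4 arrays, where 6855 of all 17217 genes did. In this list OAS3 alone lay higher on both of replicates 1 and 3, where 22.2% of all genes did. It was 12.52 and 12.13 log2 units there against 9.24 on each of replicates 2 and 4, a difference of 3.08. OAS3 makes longer oligoadenylates than OAS1 and lies beside it on chromosome 12. MX2, OAS2, OASL, IFIT1B and IFITM5 had overlapping pairs and differences from -0.44 to 0.36. A list of 5 genes held those that join ISG15 to proteins and USP18, which removes it. Of these, 4 were detected, UBE2L6, HERC5, TRIM25 and USP18, where 52.7% of all genes were. UBA7, the enzyme that activates ISG15, was at -2.31 ± 0.47 (SD, n = 4). HERC5, the main ligase, lay higher on both of replicates 1 and 3, with a difference of 0.64. In the other direction there were 3 of the 5 genes, UBA7 with -0.54, TRIM25 with -0.38 and USP18 with -0.20, against 18.5% of all genes. USP18 has near-identical copies in the genome, and its value is uncertain for that reason.

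A wider list of 47 other interferon-stimulated genes gave 19 higher on both of replicates 1 and 3, 8 of them by at least 1 log2 unit. Among all genes 22.2% did so, and 4.85% by that size. In the other direction there were 7 genes, 1 of them by at least 1 log2 unit, against 18.5% and 5.41% of all genes. The median difference of the list was 0.27. Among the 22 detected genes of the list the largest difference was that of IFI6, a small membrane protein with antiviral action, at 12.31 and 12.73 log2 units on replicates 1 and 3 and 10.63 and 10.80 on replicates 2 and 4. The other 7 genes, named after their values were seen, were not detected by the study's rule. They were IFI44 with a difference of 2.88, the antiviral radical enzyme RSAD2 with 2.47, SP100 with 2.41, IFI44L with 1.94, EPSTI1 with 1.67, the transcription factor IRF7 with 1.61 and CMPK2, the neighbour of RSAD2, with 1.55.

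Other genes of the list, also named after their values were seen, differed less or the other way. The gene higher by 1 log2 unit on replicates 2 and 4 was DHX58, a relative of the RNA sensors, with a difference of -1.18 that rested on replicate 1, at 7.00 log2 units against 8.92 to 9.20 on the other arrays. LGALS3BP, the editing enzyme ADAR and the kinase EIF2AK2, all above the baseline on all 4 arrays, differed by -0.16, 0.23 and -0.11. Of 13 factors that induce or restrain interferon, none lay at least 1 log2 unit higher without overlap in either direction. Of 20 widely used reference genes, 2 lay higher on both of replicates 1 and 3 and 3 on both of replicates 2 and 4. Among all genes these shares were 22.2% and 18.5%. The reference genes had differences from -0.45 to 0.65.

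**Figure D4:**
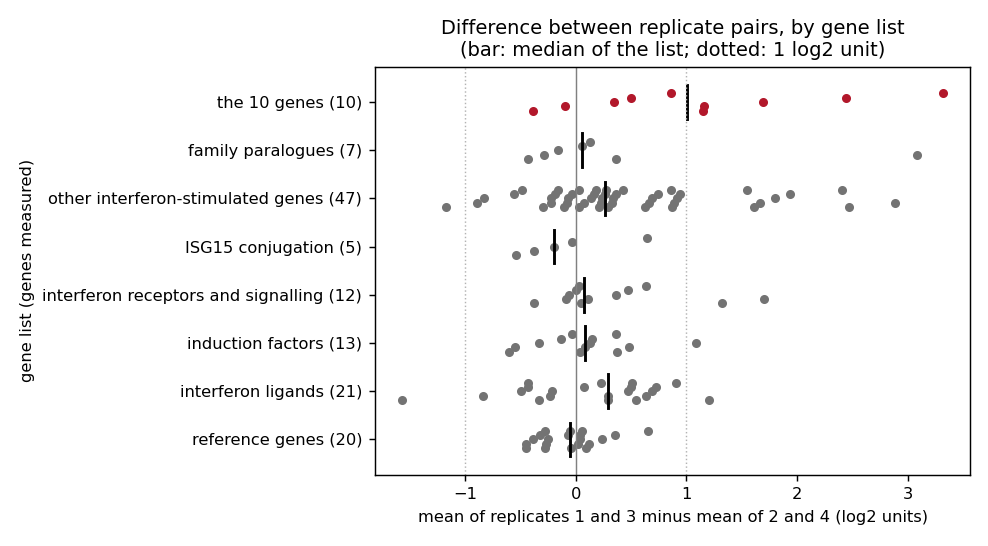
Difference of each gene (mean of replicates 1 and 3 minus mean of replicates 2 and 4, log2 units, horizontal axis) for the 10 genes and 7 other lists, with the number of genes measured in parentheses, a bar at each list's median and dotted lines at 1 log2 unit in either direction. The 10 genes have a median of 1.00, the other interferon-stimulated genes 0.27 and the reference genes -0.05.

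The arrays also differed between the same replicates in genes outside this pathway. Of 10 markers of HEK293 cells 8 were detected, against 52.7% of all genes. Of the 10, 6 lay higher on both of replicates 1 and 3, against 22.2% of all genes. None went in the other direction, and their median difference was 0.35. At least 1 log2 unit apart were LHX1, with 1.47 but below the baseline on all 4 arrays, and NEFM. NEFM, a neurofilament subunit of the line, was 13.57 and 13.09 log2 units on replicates 1 and 3 and 8.32 and 8.08 on replicates 2 and 4. NEFL, its partner, differed by 0.24. Of 12 leucocyte markers 1 was detected, CD68, and PTPRC, the defining one, lay below the baseline on all 4 arrays. The summed level of these markers was 12.13 and 12.63 log2 units on replicates 1 and 3 and 12.37 and 13.43 on replicates 2 and 4. CD68 was the highest of them on each array, at 11.13 and 11.54 on replicates 1 and 3 and 11.53 and 12.90 on replicates 2 and 4. CD14 was higher on replicates 1 and 3, by 1.46, and NKG7 went the other way, with a difference of -1.54. Both CD14 and NKG7 lay below the baseline on all 4 arrays. Of 12 fibroblast and endothelial markers 2 were detected by the study's rule, COL1A1 and KDR, and limma called none. Of the 12, 2 lay at least 1 log2 unit higher on both of replicates 1 and 3, COL1A1 by 1.76 and LUM, not detected, by 1.06. Among all genes 4.85% did so. None of the 12 lay higher on both of replicates 2 and 4, where 18.5% of all genes did. The median difference of this list was 0.09. The summed level of the 12 markers was 12.50 and 12.51 on replicates 1 and 3 and 11.92 and 11.76 on replicates 2 and 4. The part of any of these in the differences above was not tested.

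The pattern of the IFIT genes was last set against every other gene. Centred on its own mean, the average of IFIT1, IFIT2, IFIT3 and IFIT5 was 0.78, -0.88, 0.85 and -0.75 log2 units on replicates 1 to 4. Among the 5 genes nearest to it by Euclidean distance over the 4 arrays were IRF7 (0.14), FANK1 (0.14), PPP1R15A (0.14) and ZNF165 (0.15). IRF7 is itself interferon-stimulated and was on the list above. PPP1R15A, a stress-induced regulator of translation, was 14.67 and 14.70 log2 units on replicates 1 and 3 and 12.98 and 13.28 on replicates 2 and 4. With 4 arrays such nearness is a description and nothing more.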

How the data were processed

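Total RNA from 4 HEK293 cultures was reverse transcribed with oligo(dT), labelled with a single dye, Cy3, and hybridised to NimbleGen arrays. The values the authors deposited are on a log2 scale, 1 for each probe on each array. The methods name NimbleScan, and the submitters' processing notes name RMA. Sorted values had the form of quantile normalization in 2 separate pairs of arrays. Raw intensities were not analysed here.

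The table held 71998 probes in 24000 targets. Accessions were matched to a RefSeq table of assembly GRCh38.p14, which named 19125 targets and 17217 genes. Probes were averaged on the linear scale within a target and returned to log2, and targets of the same gene were then averaged. Differences between replicates 1 and 3 and replicates 2 and 4 carry no test. Distances to the baseline were tested one-sided by limma 3.58 (R 4.3), and p-values were adjusted over all genes by the Benjamini-Hochberg method. The prior degrees of freedom were infinite, so every gene had a standard error of 0.35. The fit was tested on simulated data with independent noise of the same variance for every gene. A fit with these pairs of arrays as a random block (consensus correlation 0.34) was added after the data were seen. In the main fit a p-value thus reflects the spread between these cultures pooled over all genes, not that of the single gene. The p-values take the baseline of each array as known.

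The members and lists were chosen with earlier results of these data known. Genes were named by rule: the 10 genes, their relatives, the ISG15 machinery, the receptors and signalling genes, up to 8 detected genes with the largest difference in other lists, the 5 nearest profiles and the control genes. Others are named as chosen after their values were seen, or as flanking genes and markers. Of the listed genes PYY2, IFITM10, HERC6, IFI27 and IRF5 were not matched. Some genes that the rule takes in are not reported here. Alternatives covered the probe summary, the target rule, the scaling, the baseline, a filter on low levels and each array left out.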

Additional observations from a re-analysis of the deposited data

Results flagged for a closer look

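Of 68 sets of 4 values looked at (levels and distances of named genes), 2 had an array whose gap to the nearest of the others, divided by the range, passed Dixon's critical value for 4 samples, and chance alone marks about 1 in 20. For the level of IFITM5 the ratio was 0.892, with replicate 1 at 5.99 log2 units and the remaining arrays at 6.86 to 6.97. For the distance of UBA7 to the baseline it was 0.848, with replicate 3 at -3.00 and the remaining arrays between -2.14 and -1.98. None of the 10 genes passed it.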

How the results depend on the processing

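The count of 4 detected genes depended most on the baseline. It was 0 with 3 SD, 7 with the median and scaled MAD, 8 with olfactory receptor controls and 9 without SPATA5 and SPATA13. Asking for all 4 arrays above it left 1 gene, the limma call 1, also with the normalization pair as a random block, limma fitted with trend and robust options 1, and the count was 2 to 4 with each array left out. With 3 SD the distances of IFIT1, IFIT3, IFIT5 and IFITM3 turned to -0.77, -1.27, -1.17 and -0.0733. That of IFIT3 was -0.14 with the median of log2 probes and -0.54 to 0.47 with each array left out, and that of IFIT5 -0.14 to 0.46.

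The 8 genes higher on replicates 1 and 3 became 4 with the median of log2 probes, and the 5 with at least 1 log2 unit became 2. A filter to genes with a mean level above the median of all genes, 10.37 log2 units, kept 2 genes, IFIT1 and IFITM3. Of these, 2 were higher and 0 by 1 log2 unit. The 5 genes with at least 1 log2 unit, IFIT2, IFIT3, OAS1, ISG15 and MX1, all had a mean level below that median. In the other direction the count of 1 was 0 with that filter and 0 with arrays centred on the reference genes. It was 2 within replicates 1 and 2, 2 within replicates 3 and 4, and 1 to 2 with each array left out. By at least 1 log2 unit it was 1, IFITM1, with the median of log2 probes. Centring on the reference genes moved the median difference of all genes from 0.03 to 0.15. The counts in favour of replicates 1 and 3 and limma's calls were added after the direction had been seen. Of the main counts and medians 64 alternative values stayed within the limits and 19 did not. Of the single-gene values 212 stayed, 44 moved and 8, all distances of detected genes, fell below 0. Other changes of sign were counted as moved or stayed. Examples are the distance of ISG15, 0.72 without SPATA5 and SPATA13, and the difference of IFIT5, 0.19 without replicate 3. The cause was not tested.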
